A study of Mus musculus with 24 samples.

Results

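Sytl3, Serpinb1b, Cpne4 and Unc13c are 4 genes, of 26883 gene names on the array, whose signal was much higher in afferent than in efferent nerve fibres of the mouse spinal roots. They were chosen for that difference, so their AN against EN values are given below as a description and were not tested. On the array, 9 of 56605 gene probes carry the name of 1 of these genes, and 8 of the 9 were bright enough to test, which means well above background throughout 1 group of 3 arrays or more. The study compared efferent nerve fibres (EN, ventral root) and afferent nerve fibres (AN, dorsal root) of spinal segments L4–L6 from C57BL/6 mice at birth (P0) and after 1 W, 3 W or 5 W of life, where W stands for weeks. The labels name no genotype beyond the strain and no treatment for any group. Each of the 8 groups formed by root and age had 3 arrays of 1 dye. The fibres of each group were collected into a tube of their own. The methods call the arrays of a group independent experiments, but neither they nor the labels say which animals an array holds, and p values measure the spread between these samples.

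All 4 genes encode intracellular proteins, and 3 of them belong to families with calcium- or phospholipid-binding C2 domains that act in membrane traffic. Sytl3 encodes synaptotagmin-like protein 3, which binds the small GTPase Rab27 on secretory vesicles. Unc13c encodes Munc13-3, a priming factor that makes synaptic vesicles ready for fusion at the active zone and is best known from the cerebellum. Cpne4 encodes a copine, a protein that binds phospholipid membranes in the presence of calcium. Serpinb1b encodes a clade B serpin, and its family includes intracellular inhibitors of the serine proteases of neutrophils. A dorsal root carries the central axons of sensory neurons, whose cell bodies lie in the dorsal root ganglion, and a ventral root carries the axons of motor neurons, whose cell bodies lie in the spinal cord. Both kinds of axon are ensheathed by Schwann cells.

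The signal of each gene rests on 60-base probes, which are shown because probes of 1 gene differed from each other. Positions are those of mm9 in the array files, and sequences come from the same files. Whole sequences are printed for the pair of Sytl3 probes that span an intron, and the last 30 bases for the others, with an AATAAA hexamer, the letters of the common polyadenylation signal, in capitals where a probe holds one. Along Sytl3, on the plus strand of chromosome 17, the probes lie in this order from 5′ to 3′.
A_55_P2156937 (chr17:6880588-6880647), last 30 bases: aggaatacaaggaaaagtgctgtgcacgtt
A_51_P461368 (chr17:6913535-6919746), whole: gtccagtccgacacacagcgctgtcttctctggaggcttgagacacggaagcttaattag
A_66_P105599 (chr17:6940925-6942094), whole: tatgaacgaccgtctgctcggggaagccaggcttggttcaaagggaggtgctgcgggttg
A_66_P121847 (chr17:6942330-6942389), last 30 bases: aatgttctgatctcAATAAAcgctcaacac

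Serpinb1b has 1 probe, on the plus strand of chromosome 13. Cpne4 has a pair of probes on the plus strand of chromosome 9, and Unc13c has a pair on its minus strand, with the 5′ probe of the gene listed first.
Serpinb1b A_52_P86116 (chr13:33185999-33186058), last 30 bases: tgtcaacagaatcacgtctaaaagctaaag
Cpne4 A_51_P260288 (chr9:104775329-104775388), last 30 bases: ttgcttcttttgtagagttAATAAActctc
Cpne4 A_55_P2150697 (chr9:104935202-104935261), last 30 bases: aagcactgtttatctattcctgtactttaa
Unc13c A_55_P2427900 (chr9:73781310-73781369), last 30 bases: ttatatacataagctttgcaaaggaatgtt
Unc13c A_52_P530066 (chr9:73331431-73331490), last 30 bases: cacatggtcaccgaagtacaatgaaacctt
Which exon or untranslated region a probe covers was not analysed here. The Serpinb1b probe shared at most 8 bases in a row with any of the 33 probes of other clade B serpins. Bases shared between probes do not show whether it also binds transcripts of those serpins, which was not analysed here.

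Values are log2 signals, quantile normalized over the 24 arrays by the authors, and the brightest tested probe of a gene stands for it unless another probe is named. The probes were A_66_P121847 for Sytl3, A_52_P86116 for Serpinb1b, A_55_P2150697 for Cpne4 and A_55_P2427900 for Unc13c. The mean of 15 sensory neuron markers, such as Avil and Calca, was 10.21 to 11.62 in AN and 10.36 to 10.74 in EN at P0, so that this list did not separate the roots at birth. At 1 W it was 11.11 to 11.43 in AN and 7.29 to 8.54 in EN. AN replicate 3 at 3 W differed from the other arrays of its group. It correlated with them at r = 0.963 and 0.959 across probes, against 0.991 between those, although pairs within other groups also went down to 0.957. Its sensory neuron markers reached 12.5, against 9.20 and 8.82 on the other AN arrays. For the tested probes of the chosen genes, AN minus EN at 3 W is drawn with and without this array. The total of related genes called is also given without it. The 3 W values of single related genes and of marker lists include it. In root tissue, fewer cells of a type and less RNA per cell cannot be told apart. The cell bodies of sensory and motor neurons lie outside the roots, and where the RNA of neuron markers came from was not tested.

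**Figure D1:**
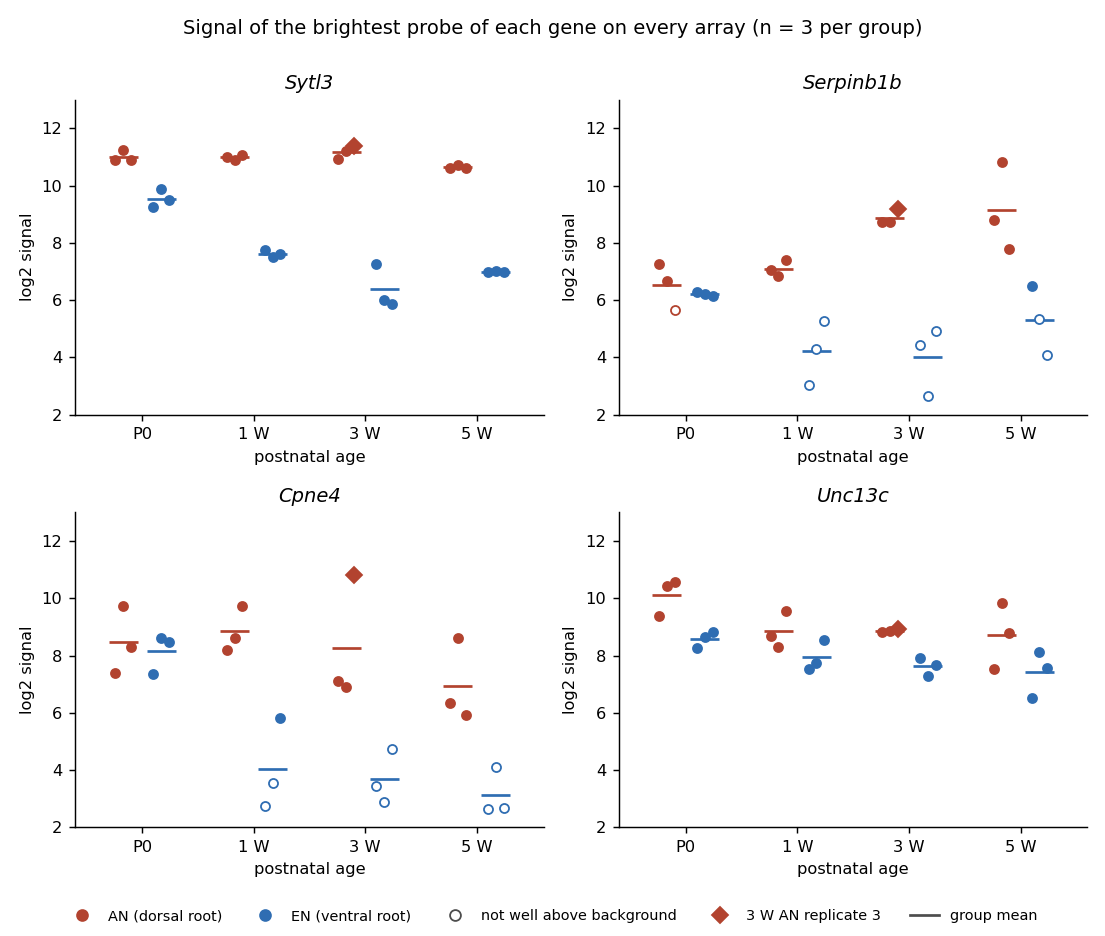
Log2 signal of the brightest probe of each gene on each of the 24 arrays, by age, with AN in red, EN in blue and bars at the group means. Open symbols were not well above background, and the diamond is AN replicate 3 at 3 W. Sytl3 stays between 10.6 and 11.4 in AN at every age while EN lies at 9.87 or below, and the Cpne4 diamond at 10.83 lies above the other AN arrays of its age.

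Sytl3 lay between 10.60 and 11.39 on all AN arrays and fell with age in the efferent nerve fibres. At P0 its 3 AN arrays read 10.88, 11.24 and 10.88 and its 3 EN arrays 9.24, 9.87 and 9.51. Already at birth the roots did not overlap, with AN higher by 1.46 ± 0.22 (SE), which is 2.76-fold. At 1 W the AN arrays read 11.00, 10.91 and 11.06 and the EN arrays 7.76, 7.50 and 7.60, a difference of 3.37 ± 0.09. At 3 W AN replicates 1 and 2 read 10.93 and 11.21, AN replicate 3 read 11.39, and the EN arrays read 7.28, 6.00 and 5.86. This was the widest gap of Sytl3, 4.79 ± 0.47 with all arrays and 4.69 ± 0.47 without AN replicate 3. At 5 W the AN arrays read 10.60, 10.71 and 10.63 and the EN arrays 6.97, 7.01 and 6.99, a difference of 3.66 ± 0.03. AN replicate 3 at 5 W had a sensory neuron marker mean of 7.52 and AN replicate 1 one of 10.2, and Sytl3 read 10.63 and 10.60 on this pair. At P0 and 3 W the AN array with the highest marker mean (11.62 and 12.5) also read highest for Sytl3 in its group. At 1 W the AN array with the highest mean (11.43) read lowest. Whether these values are related was not tested.

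The change since P0 was tested within each root, with limma over all 24 arrays and Benjamini-Hochberg adjustment over 36409 tested probes. A change counted as called where the adjusted p was under 0.05 and the fold change exceeded 2. The comparisons of 1 W, 3 W and 5 W share the P0 arrays, and they also share arrays with the AN against EN difference that the genes were chosen on. Low EN values and high AN values after P0 are part of that choice. The p values of falls in EN and of rises in AN therefore describe these genes and are no independent support. In EN, Sytl3 fell by 1.92 (SE 0.26, limma adjusted p = 3.14e-05) at 1 W, 3.16 (adjusted p = 1.38e-08) at 3 W and 2.55 (adjusted p = 1.4e-07) at 5 W. These falls were 3.78-fold, 8.92-fold and 5.86-fold, and all 3 EN arrays of each later age were below all 3 of P0. In AN the changes were −0.01, 0.17 and −0.35 (SE 0.26, limma adjusted p = 0.985, 0.592 and 0.262), and none was called. By rank of the group means, the 4 AN groups came first, followed by EN at P0, 1 W, 5 W and 3 W, and the last pair overlapped.

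The other Sytl3 probes did not all follow the brightest one. A_66_P105599, which spans an intron in the 3′ part of the gene, gave AN minus EN differences of 1.45, 3.13, 3.99 and 3.61 in order of age, and its EN signal fell by 1.51, 2.06 and 2.22 since P0 (limma adjusted p = 4.23e-05, 1.97e-07 and 5.54e-08). A_51_P461368, the other intron-spanning probe, was above background on 2 EN arrays at P0 and on none later. It was higher in AN by 1.48 at P0 and then by at least 5.49-fold, 5.78-fold and 3.50-fold, where "at least" sets the AN mean against the lowest signal that was still above background on the EN arrays. Its falls in EN were called as well, and amount to at least 1.47-fold, 1.47-fold and 1.31-fold (limma adjusted p = 0.00433, 0.00148 and 1.6e-06). A_55_P2156937, the most 5′ probe, was dim, with 4.89 to 6.31 in AN, and was above background on 1 of the 12 EN arrays. AN was higher by at least 1.12-fold, 2.08-fold and 2.07-fold at P0, 1 W and 3 W, the roots overlapped at 5 W, and no change since P0 was called in either root. At P0, 1 W and 3 W no EN array was above background on this probe, so the true size of those differences is not known. Why this probe differed from the others was not tested.

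**Figure D2:**
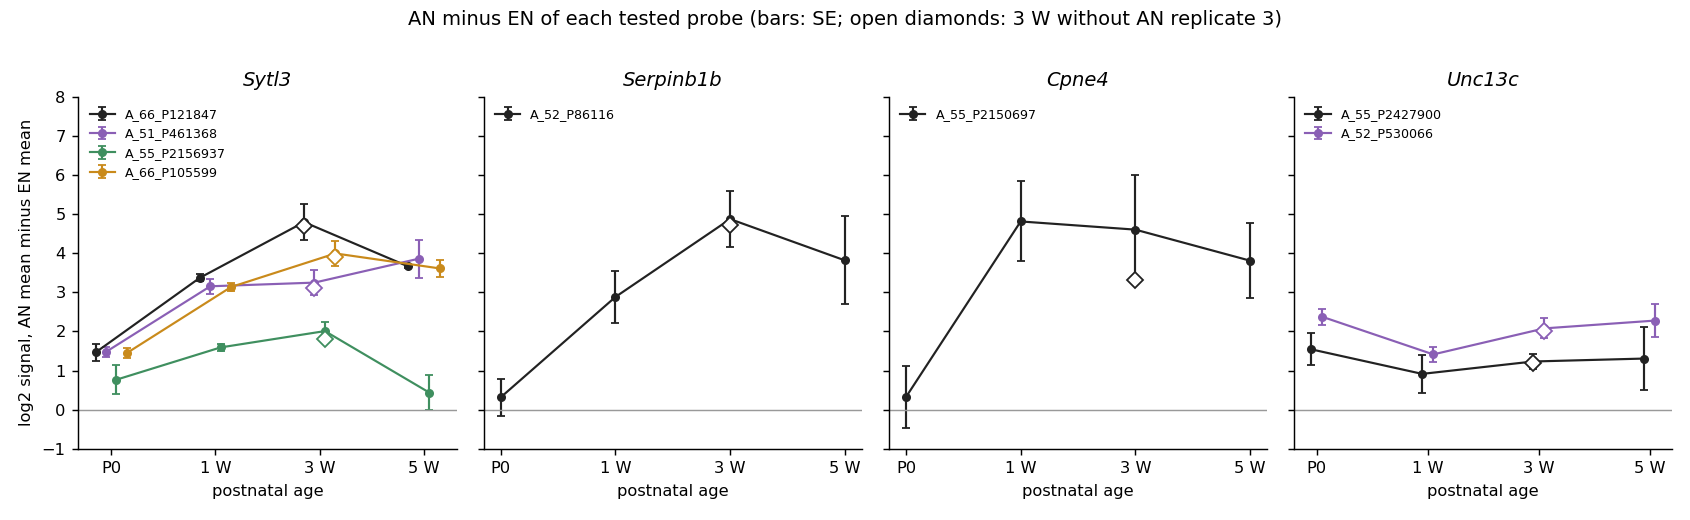
AN mean minus EN mean of the log2 signal at each age for the 8 tested probes, 1 panel per gene, with bars for the SE from the spread within both groups. Open diamonds leave out AN replicate 3 at 3 W, which lowers Cpne4 from 4.60 to 3.33 and moves Sytl3 (4.79 to 4.69) and Serpinb1b (4.87 to 4.72) little; EN values below background make some differences only approximate.

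Serpinb1b was the gene among these that rose with age in the afferent nerve fibres. At P0 its AN arrays read 7.28, 6.67 and 5.65, the last below background, and its EN arrays 6.29, 6.21 and 6.15. The roots overlapped at birth, with a difference of 0.32 ± 0.48. At 1 W AN read 7.05, 6.83 and 7.39, and no EN array was above background, so that AN was higher by at least 4.58-fold. At 3 W AN replicates 1 and 2 read 8.72 and 8.74 and AN replicate 3 read 9.18, again with no EN array above background. AN was then higher by at least 16.1-fold with all arrays and by at least 14.5-fold without AN replicate 3. At 5 W AN read 8.79, 10.82 and 7.80 and EN 6.50, 5.36 and 4.10. Only the EN value of 6.50 was above background, and the scanner had marked that spot, on EN replicate 1, as an outlier. The difference was 3.82 ± 1.13 and the roots did not overlap. The AN array with 10.82 was replicate 2 of 5 W. Its mean of the 7 markers of dorsal horn and spinal interneurons was 9.02. AN replicates 1 and 3 of that age had 8.10 and 7.56. Its astrocyte marker mean was 11.03, against 10.54 and 10.28, and its oligodendrocyte marker mean 9.99, against 9.27 and 8.30. Its sensory neuron marker mean of 9.13 lay between theirs, 10.2 and 7.52. AN replicate 1 of P0 had a dorsal horn and interneuron mean of 9.07, with Serpinb1b at 7.28. The part of any of these markers in the Serpinb1b values was not tested.

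In AN, Serpinb1b changed since P0 by 0.56 at 1 W (limma adjusted p = 0.65), 2.35 at 3 W (adjusted p = 0.012) and 2.61 at 5 W (adjusted p = 0.00616), each with an SE of 0.73. The later pair was called, a 5.10-fold and a 6.08-fold rise, and every AN array at 3 W and 5 W was above every AN array at P0. In EN its signal fell by 2.01 at 1 W (limma adjusted p = 0.0495) and 2.20 at 3 W (adjusted p = 0.0166), which amounts to at least 2.50-fold and 2.53-fold because EN was below background. At 5 W the change was −0.89 (adjusted p = 0.318) and was not called. The rise in AN at 5 W was called in every fit that leaves out 1 array and in each alternative, with 1.76 (adjusted p = 0.0475) without AN replicate 2 of 5 W and 3.28 without AN replicate 3 of 5 W. The other calls depended on single arrays. Without AN replicate 3 of P0 the rise at 3 W was 1.91 (adjusted p = 0.0644), and without EN replicate 2 of 3 W the fall at 3 W was 1.53 (adjusted p = 0.108). The fall at 1 W was no longer called in 16 of the 24 fits that leave out 1 array, with adjusted p between 0.0244 and 0.228, the highest without EN replicate 1 of 1 W. All 3 W arrays lay on slide 4, which held none of P0. With slide as a block, the change at 3 W was 4.36 in AN (adjusted p = 0.00244) and −0.19 in EN (adjusted p = 0.895), and at 5 W it was 3.34 in AN. Within slide 3, AN was higher by 4.67 at 5 W (1 array) than at P0 (2 arrays).

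Cpne4 had overlapping signals in both roots at birth and fell to or below the background in the efferent nerve fibres afterwards. At P0 AN read 7.38, 9.72 and 8.30 and EN 7.37, 8.60 and 8.47, an overlap with a difference of 0.32 ± 0.78. At 1 W AN read 8.20, 8.60 and 9.73 and EN 2.76, 3.54 and 5.81, and of the EN values the last alone was above background. The difference was 4.81 ± 1.02. At 3 W AN replicates 1 and 2 read 7.12 and 6.89, whereas AN replicate 3 read 10.83, and no EN array was above background. AN was higher by at least 10.6-fold with all arrays and by at least 4.38-fold without AN replicate 3, so that this array carried much of the 3 W value. The same array had the highest mean of the 24 for sensory neuron (12.5), motor neuron (10.1), satellite glia (13.69) and skeletal muscle markers (13.94). The part of these markers in the Cpne4 value was not tested. At 5 W AN read 6.34, 8.61 and 5.91, no EN array was above background, and AN was higher by at least 3.76-fold.

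In EN, Cpne4 fell by 4.11 at 1 W (SE 0.99, limma adjusted p = 0.00493), 4.46 at 3 W (adjusted p = 0.000999) and 5.00 at 5 W (adjusted p = 0.000334). The falls at 3 W and 5 W were at least 9.64-fold and 8.59-fold. At 1 W only 1 of the 3 EN arrays was above background, so the size of that fall is uncertain. The change there was −3.47 without EN replicate 1 and −5.00 without EN replicate 3 of 1 W, and with normexp background correction the changes in EN were −1.93, −2.02 and −2.14, all called. In AN the changes were 0.38, −0.19 and −1.52 (limma adjusted p = 0.838, 0.891 and 0.216), and none was called. Without AN replicate 3 the change in AN at 3 W was −1.46 (adjusted p = 0.191). With slide as a block the changes in EN were −3.57, −3.12 and −4.42 (adjusted p = 0.00391, 0.0485 and 0.000676), and the AN change at 3 W was 1.16 (adjusted p = 0.482). The second Cpne4 probe, A_51_P260288, was above background on 5 of the 24 arrays and was not tested. Its highest value was 6.63, on AN replicate 3 at 3 W, and all of its above-background arrays were AN arrays of P0, 1 W and 3 W.

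Unc13c was higher in the afferent nerve fibres from birth on and fell in both roots. Its probe A_52_P530066, in the 3′ part of the gene, read 10.34, 10.54 and 10.86 in AN and 8.19, 7.96 and 8.48 in EN at P0. That was the largest gap among the tested probes of these genes at birth, 2.37 ± 0.21 or 5.18-fold. At 1 W it read 9.05, 8.76 and 9.34 in AN and 7.59, 7.79 and 7.54 in EN. At 3 W AN replicates 1 and 2 read 8.07 and 8.70, AN replicate 3 read 8.59, and EN read 6.67, 6.08 and 6.39. At 5 W AN read 8.19, 9.38 and 8.77 and EN 5.99, 6.85 and 6.66. The roots did not overlap at any age, and after P0 the differences were 1.41, 2.08 and 2.28 in order of age, or 2.01 without AN replicate 3 of 3 W. In AN this probe fell by 1.53, 2.13 and 1.80 (SE 0.28, limma adjusted p = 0.000629, 4.75e-06 and 2.54e-05), and in EN by 1.83 at 3 W and 1.71 at 5 W (adjusted p = 2.37e-05 and 4.3e-05). The EN change of −0.57 at 1 W (adjusted p = 0.139) was not called.

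The brighter Unc13c probe, A_55_P2427900, lies towards the 5′ end and gave smaller differences. In AN it read 9.37, 10.43 and 10.57 at P0, 8.70, 8.30 and 9.57 at 1 W, 8.82 and 8.85 with 8.91 on replicate 3 at 3 W, and 7.53, 9.83 and 8.79 at 5 W. In EN it read 8.27, 8.66 and 8.81 at P0, 7.53, 7.73 and 8.56 at 1 W, 7.92, 7.28 and 7.68 at 3 W, and 6.53, 8.12 and 7.58 at 5 W. The values of the roots overlapped at 1 W and 5 W, and AN minus EN was 1.54, 0.91, 1.23 and 1.31 at the 4 ages in turn. Between AN and EN arrays of the same number, AN was higher in 3 of 3 pairs at each age, by 1.17, 0.56 and 1.01 at 1 W and by 1.00, 1.71 and 1.22 at 5 W. These pairs are a description, because the gene was chosen on this contrast. Other probes had a pair with AN lower, Serpinb1b (−0.503) and Cpne4 (−0.166) at P0 and Sytl3 A_55_P2156937 (−0.339) at 5 W. The falls in AN were called at 3 W (1.26, SE 0.50, limma adjusted p = 0.0403) and at 5 W (1.41, adjusted p = 0.0244), while the AN change of −1.27 at 1 W (adjusted p = 0.0774) and the EN changes of −0.64, −0.95 and −1.17 (adjusted p = 0.366, 0.112 and 0.0542) were not. The call at 3 W was lost without AN replicate 2 or 3 of P0 (adjusted p = 0.115 and 0.14) or without AN replicate 1, 2 or 3 of 3 W (adjusted p = 0.0845, 0.0816 and 0.0672). The call at 5 W was lost without AN replicate 2 or 3 of P0 (adjusted p = 0.0794 and 0.0961) or AN replicate 1 of 5 W (adjusted p = 0.171). The direction of the fall in AN was the same on both probes at each age.

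**Figure D3:**
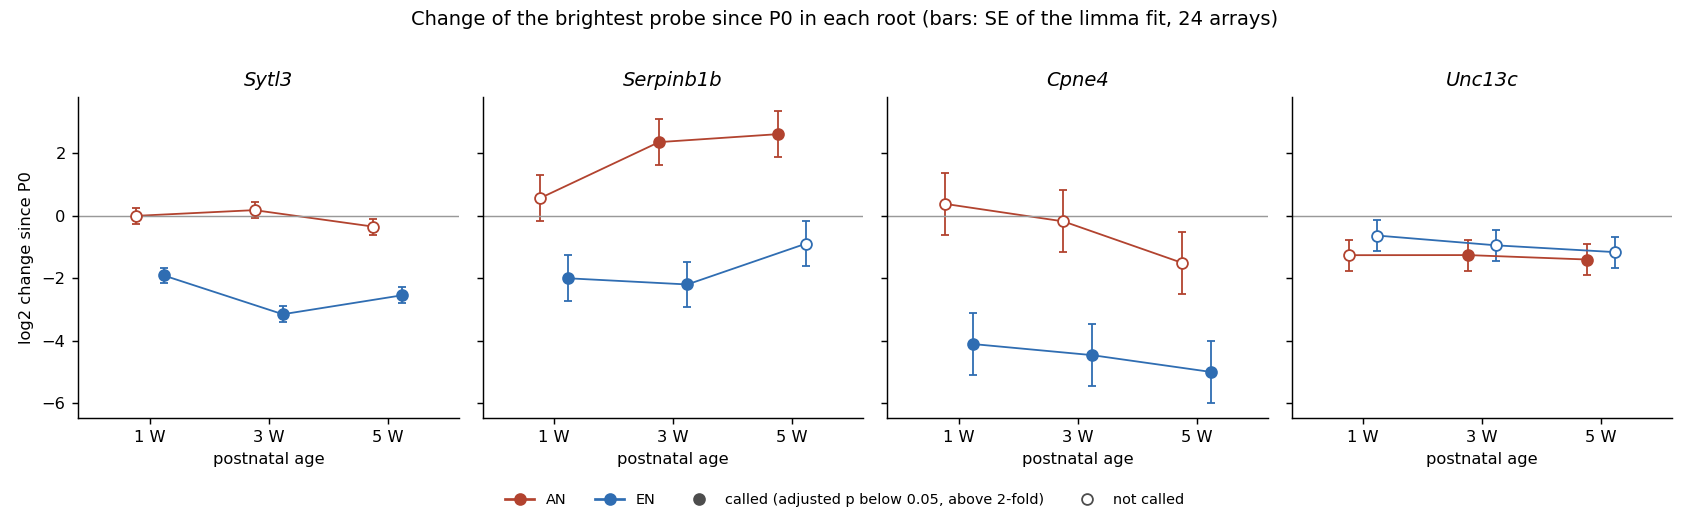
Log2 change of the brightest probe of each gene since P0 in AN (red) and EN (blue) at 1 W, 3 W and 5 W, with bars for the SE of the limma fit; filled points passed the call. Sytl3 and Cpne4 fall in EN and have no called change in AN, Serpinb1b rises in AN at 3 W and 5 W (2.35 and 2.61), and Unc13c falls in AN (1.26 at 3 W, 1.41 at 5 W).

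Over the 8 tested probes, the AN and EN arrays were fully separated, AN above EN, on 6, 7, 8 and 6 probes at the 4 ages in turn. Over all 36409 tested probes this held for 6.75%, 12.0%, 12.8% and 9.37%, and nothing can be read from the comparison because the genes were chosen for it. Low EN values after P0 are part of the same choice, so the counts in EN that follow are a description as well. For the changes since P0, 5 of the 8 probes were called lower in EN at 1 W, 6 at 3 W and 5 at 5 W, where 5.67%, 14.4% and 14.5% of all tested probes were called lower. None of the 8 was called higher in EN by limma at any age, against 6.25%, 16.1% and 15.4% of all tested probes. In AN, 1, 2 and 2 of the 8 probes were called lower (3.62%, 12.8% and 12.7% of all tested probes), each of them an Unc13c probe. The Serpinb1b probe was called higher at 3 W and 5 W and none was at 1 W (15.0%, 15.2% and 4.96% of all tested probes). The 8 probes belong to 4 genes and are not independent of each other.

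Across the 24 arrays, the signals of the 4 genes correlated with each other with a Pearson r of 0.472 (Serpinb1b and Unc13c) to 0.857 (Sytl3 and Cpne4). The arrays share ages and roots, so these values describe likeness only. The genes with the pattern most like Sytl3 were Abca8b (r = 0.954), Slitrk5, Prkar2b, L1cam and Ntng1 (r = 0.921). L1cam encodes an adhesion molecule of axons and Ntng1 the membrane-bound guidance protein netrin-G1. Most like Serpinb1b were Gpr83 (r = 0.922), Hrh3, Trhr, Rab26 and Tac2 (r = 0.895), of which Hrh3 and Trhr encode the receptors of histamine and of thyrotropin-releasing hormone and Tac2 encodes neurokinin B. For Cpne4 they were Lhfpl5 (r = 0.977), Celf6, Ttbk1, Dbndd1 and Rab3c (r = 0.975). Unc13c had the weakest matches, from Tmpo (r = 0.879), Mapre2, Cyria and Ssbp3 to Rbms1 (r = 0.863). Without AN replicate 3 at 3 W, 3 of the 5 genes were shared with these sets for Cpne4 and 3 for Unc13c. By Spearman's rho, 1 of 5 was shared for Sytl3, 1 for Cpne4 and 0 for Unc13c, so that these names depend on the measure, whereas 4 of 5 were shared for Serpinb1b.

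Genes of the same families and pathways were compared between AN and EN with the limma fit. Of 70 related genes with a tested probe, 0 were called by limma at P0 (1 at an unadjusted p below 0.05). The 16 called at 1 W comprised 15 higher and 1 lower in AN, the 14 called at 3 W comprised 12 and 2, and the 11 called at 5 W comprised 10 and 1. Of all tested probes, 0.0714%, 2.41%, 2.23% and 2.49% were called higher in AN at the 4 ages in turn and 0.255%, 0.371%, 0.882% and 0.821% lower. Among 30 genes of vesicle priming and the active zone, the partners of Unc13c, 9 were higher in AN at 1 W, 7 at 3 W and 7 at 5 W, and none was lower. At 1 W the median of this list was 0.59, against −0.06 over all tested probes. The widest differences at 1 W were those of Cplx1 (4.69, limma adjusted p = 0.00513) and Cadps (3.88, adjusted p = 0.00708), which encode a complexin and a priming factor of dense-core vesicles, followed by Syt1 (3.27, adjusted p = 0.0143), which encodes the calcium sensor synaptotagmin, and Rims3 (adjusted p = 0.0119). The paralogs Unc13a, Unc13b and Unc13d were not called at any age, with differences between −0.64 and 0.15.

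Of 19 genes encoding synaptotagmin-like proteins, Rab27, Rab3 and their effectors, 17 were tested. At 1 W, 5 were higher in AN, led by Rab3c (4.52, limma adjusted p = 0.00302), Rab27b (3.18, adjusted p = 0.00827), Sytl2 (2.40, adjusted p = 0.000337) and Rab3b (1.29, adjusted p = 0.00376). Sytl2, a paralog of Sytl3, was also higher in AN at 3 W (3.18) and 5 W (1.15, adjusted p = 0.024). Rph3a, which encodes the Rab3 effector rabphilin, had differences of −2.04 at 3 W (adjusted p = 0.0182) and −2.68 at 5 W (adjusted p = 0.00218), which is 4.10-fold and 6.43-fold lower in AN. Among the 8 other copines, Cpne6 was higher in AN at 1 W (4.70, adjusted p = 0.00685) and 3 W (3.52, adjusted p = 0.0284) and Cpne9 at 3 W, by at least 3.02-fold, and none was called at 5 W. Of 26 clade B serpins, 10 were tested, and Serpinb6b alone was called, with −1.26 at 1 W (adjusted p = 0.0203) and −1.03 at 3 W (adjusted p = 0.0491), lower in AN. The neighbours of Serpinb1b in the family, Serpinb1a and Serpinb1c, differed by 1.05 and 1.12 at 3 W (adjusted p = 0.26 and 0.278) and were not called. None of the 5 tested serine proteases of neutrophils and mast cells was called by limma, and the median of that list was 0.52 at 1 W and −0.32 at 3 W.

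These counts depended on the pairing of arrays and on single arrays. With the AN and EN arrays of 1 age and number as a pair in limma, 22 related genes were called at 1 W in place of 16, 5 at 3 W in place of 14 and 0 at 5 W in place of 11 (22, 19 and 18 at an unadjusted p below 0.05). The same fit called 1570, 334 and 0 of all 36409 tested probes, in place of 1014, 1134 and 1205, so that the loss at 5 W was not particular to the related genes. At 1 W the total of 16 was 9 without AN replicate 3 and 6 without EN replicate 1 of that age. At 3 W the total was 6 without AN replicate 3 and 7, 5 and 8 without EN replicate 1, 2 and 3 of that age. At 5 W it was 18 without AN replicate 3 of either 3 W or 5 W, 4 without AN replicate 2 and 7 without EN replicate 3 of 5 W.

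**Figure D4:**
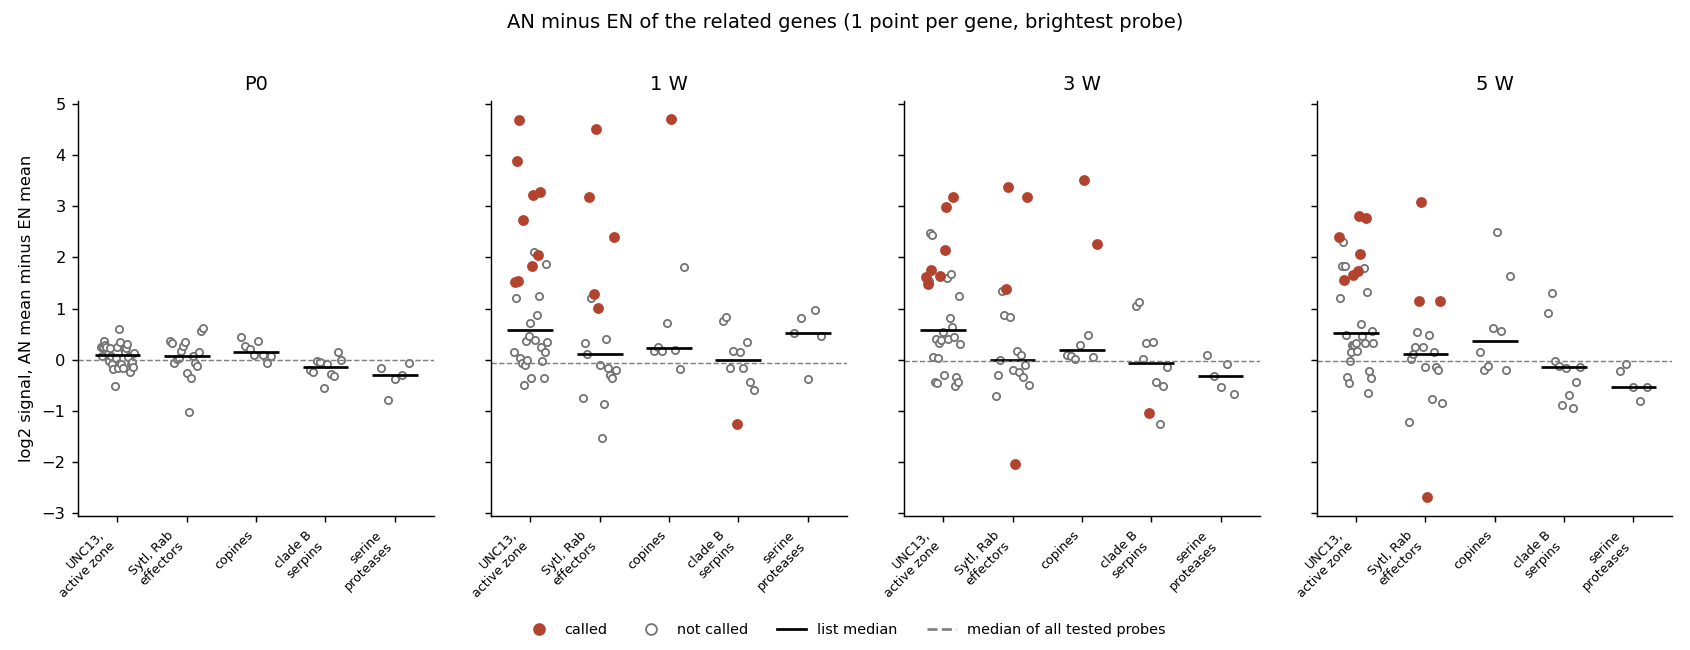
AN mean minus EN mean of the log2 signal for each tested gene of the 5 lists, 1 panel per age, with filled points for called genes, black lines at list medians and the dashed line at the median of all tested probes. No point is called at P0; at 1 W the called genes of the active zone list lie between 1.52 (Bsn) and 4.69 (Cplx1).

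Some lists of cell type markers moved with these differences and others did not. Of 15 sensory neuron markers, 10 were higher in AN at 1 W by limma, 3 at 3 W and 1 at 5 W, and their median AN minus EN difference was 4.80, 2.88 and 1.32, against 0.34 at P0. The 3 W values of all marker lists include AN replicate 3, whose sensory neuron marker mean was 12.5, against 9.2 and 8.82 on the other AN arrays. Of 6 tested motor neuron markers, 3 were higher in AN at 1 W, among them Isl1 and Prph, which sensory neurons express as well. Of 7 tested markers of dorsal horn and spinal interneurons, 1, 1 and 3 were higher in AN at 1 W, 3 W and 5 W. Astrocyte markers were called higher in AN for 3 of 6 at 1 W, 0 of 6 at 3 W and 3 of 6 at 5 W. For oligodendrocyte markers these counts were 2, 0 and 2 of 6. At 1 W only 3 of the 6 markers of either list had a higher mean in AN. Macrophage markers went the other way, with medians of −0.467, −0.428 and −0.486 after P0, and none was called. Of 3 satellite glia markers, 1, 2 and 2 were higher in AN after P0, with medians of 0.68, 1.83 and 2.54. Of 4 boundary cap cell markers, 1 was higher in AN already at P0 (0 with the pairs as a block) and 3 at 1 W. Their mean log2 signal at P0 was 11.07 to 11.36 in AN and 9.69 to 10.32 in EN. Their summed log2 level at P0 went the other way, with 14.8 to 15.3 in AN and 15.3 to 15.5 in EN. With the pairs as a block in limma, 11 of 15 sensory neuron markers were called at 1 W, 0 at 3 W (9 at an unadjusted p below 0.05), and no marker of any list was called at 5 W, where none of all tested probes was (1302 higher and 491 lower at an unadjusted p below 0.05). No neutrophil marker was called at any age, and their summed log2 level at 3 W was 15.0 to 15.8 in AN and 15.5 to 16.3 in EN. At 5 W, where the sensory neuron marker mean of the AN arrays ran from 7.52 to 10.2, their Sytl3 values ran from 10.60 to 10.71 on the brightest probe. On the Sytl3 probe A_51_P461368 they ran from 6.57 to 7.36. Among the AN arrays of P0 and of 3 W, the one with the highest sensory neuron mean also had the highest Sytl3 value. The means were 11.62 and 12.5, and the brightest probe read 11.24 and 11.39. At 1 W the AN array with the highest mean (11.43) had the lowest Sytl3 value (10.91). The part of these markers in the values of the 4 genes was not tested.

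**Figure D5:**
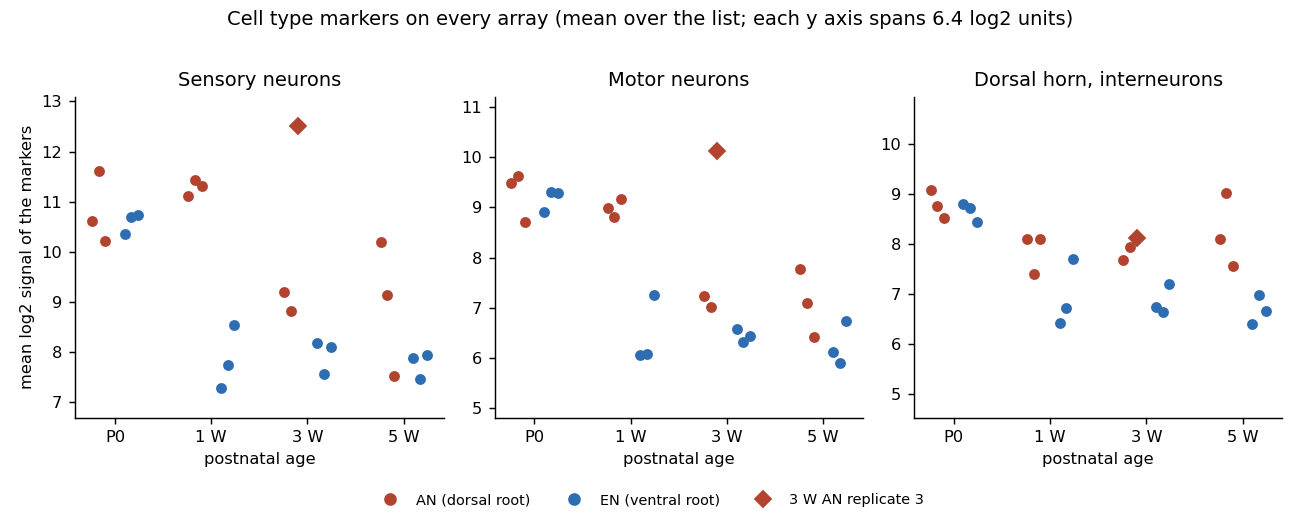
Mean log2 signal of 3 lists of cell type markers on each of the 24 arrays, by age, with AN in red, EN in blue and a diamond for AN replicate 3 at 3 W. The sensory neuron markers of the diamond, at 12.5, lie above all other arrays.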

How the data were processed

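Gene expression in 24 samples of nerve roots was read on 1-colour Agilent mouse arrays. Per the labels, spot intensity was extracted with Agilent Feature Extraction 10.7.1.1, and the authors deposited this scanner output for every array, including marks for outlier spots and for spots well above background. They also deposited log2 values for 56743 probes, quantile normalized by them, and these are the values used here (2.48 to 19.0, equal quartiles on all arrays). Testing was restricted to 36409 gene probes (64.32% of 56605), each well above background in 1 whole group or more. The median signal per array was 45.4 to 191 and the median local background 23 to 46, and this ratio and the number of arrays limit the precision.

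A model of group means over the 8 groups was fitted in limma 3.58.1 (R 4.3.3) with eBayes, with Benjamini-Hochberg adjustment. On simulated data, a log2 change of 1.5 was called at 73% of the changed probes in AN at 3 W against P0, and one of 3 at 93%. The simulation changed 100 probes of each size among 36409 and drew every array independently, without slides, pairs or a deviant array. In the data, 15.0% of tested probes were called higher and 12.8% lower for this comparison. These shares therefore describe the simulated setting and not the sensitivity in the data. A dimmer group below background on every array was replaced, array by array, by the lowest value still above background there (or by the probe's own value if higher), and the fold is then a lower bound. The SE of an AN minus EN difference comes from the spread within both groups. All probes named for the 4 genes were taken, and the brightest tested probe stands for a gene. The most similar genes are the 5 with the highest Pearson r, and from each list the called genes are named by size, up to 4 per comparison. A few further genes and probes were named after their values were seen. The genes and lists were chosen with earlier results of these data known.

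AN and EN arrays of the same age and number deviated together from their group means (r = 0.107 to 0.646 across probes in 12 of 12 pairs, against −0.467 to 0.116 for other numbers), so the numbers were taken to pair the roots within an age. They always shared a slide. Deviations from the mean of 3 arrays cancel out, so the values for other numbers are no independent baseline. At 3 W the separation was weak, with 0.184, 0.107 and 0.214 for the same number. There AN replicate 1 with EN replicate 2 gave 0.116. The alternatives were another signal column, scaling to the 75th percentile, normexp background correction with an offset of 50, other filters on dim probes, unadjusted p values, blocks for replicate number, pair and slide, array quality weights, fits of only the groups compared, and each array left out in turn. Python 3.11.15 with pandas 2.3.3 and matplotlib 3.10.9 was used for tables and figures. Promoters and proteins were not analysed here. The Schwann cell marker list is not reported here.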

Additional observations from a re-analysis of the deposited data

Results flagged for a closer look

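Serpinb1b moved in opposite directions in AN and EN between P0 and 3 W. Every AN array at 3 W lay above every AN array at P0, with a mean change of 2.35 on the log2 scale, and every EN array at 3 W lay below every EN array at P0, with a mean change of −2.20. The difference between these changes was not tested, because it is the AN against EN contrast for which the gene was chosen. No EN array at 3 W was above background, so −2.20 is no measured size, and the fall amounts to at least 2.53-fold. All 3 W arrays lay on slide 4, which held no P0 array. A fit with slide as a block can link 3 W to P0 only through AN and EN replicate 3 of 5 W, which shared slide 4. For Serpinb1b these read 7.80 and 4.10, the lowest of their groups. With slide as a block the EN change was −0.19 (limma adjusted p = 0.895) and with normexp background correction −0.69 (adjusted p = 0.161), neither called, while the AN rise was called with slide as a block (4.36).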

How the results depend on the processing

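Values in this section are log2 differences unless counts are named, and the cause of a move was not tested unless the setting itself shows it. The falls in EN of Sytl3 (brightest probe) and Cpne4 kept their direction and their call in each alternative computed for them and with any 1 array left out. Those falls remain a description, because low EN values after P0 are part of the choice of the genes. The Cpne4 probe is not above background on all 24 arrays, so that filter gave no value for it. The EN falls of the Sytl3 probe A_51_P461368 stayed below 2-fold with normexp background correction and were not called there. Normexp background correction, which adds an offset to low signals, made the AN minus EN differences smaller. For Sytl3 they were 2.92, 3.89 and 3.02 at 1 W, 3 W and 5 W, for Serpinb1b 1.14 and 2.58 at 1 W and 3 W, for Cpne4 2.51, 2.25 and 1.36 at 1 W, 3 W and 5 W, and for Unc13c 0.96 at 3 W. With it the Serpinb1b changes in EN were −0.64 at 1 W and −0.69 at 3 W and were not called, while the Unc13c change in AN at 1 W was −1.15 and was called.

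The Serpinb1b change in EN at 1 W, −2.01, was also no longer called without the filter on dim probes (adjusted p = 0.0774) or with replicate number as a block (adjusted p = 0.0597), and that at 3 W was −0.19 with slide as a block. For the brighter Unc13c probe, the AN change at 1 W passed the call with unadjusted p values (−1.27), with the replicate block (−1.27, adjusted p = 0.0381) and with array weights (−1.53). Its AN change at 3 W was not called without the filter on dim probes (−1.26, adjusted p = 0.062), nor that at 5 W with the groups compared alone (−1.41, adjusted p = 0.116). Its EN change at 5 W passed with unadjusted p values, with probes above background on all 24 arrays and with the replicate block (−1.17 each), with scaling to the 75th percentile (−1.25) and with array weights (−1.35). The replicate numbers did not pair arrays of different ages (r = −0.347 to 0.378 across probes for the same root and number), so the replicate block of the changes since P0 is given only here.

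Some changes that were not called turned in sign. The Sytl3 change in AN at 1 W was 0.053 with scaling to the 75th percentile and 0.043 with slide as a block, the Cpne4 change in AN at 3 W was 1.16 with slide as a block, and the AN changes at 5 W of the Sytl3 probes A_55_P2156937 and A_66_P105599 were 0.12 with slide as a block and 0.00344 with array weights.

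The number of related genes called between AN and EN was 1 at P0 and 20 at 5 W with unadjusted p values and 17 at 5 W with array weights. It was 19, 6 and 0 at the ages after P0 (22, 17 and 17 at an unadjusted p below 0.05) when the groups compared were fitted alone by limma, and 22, 5 and 0 with the pairs as a block (22, 19 and 18 at an unadjusted p below 0.05). Over all tested probes, these fits called 1304, 673 and 35 and 1570, 334 and 0. By Spearman's rho, 1, 1 and 0 of the 5 genes most like Sytl3, Cpne4 and Unc13c were shared with Pearson's r.

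When each array in turn was omitted, the AN change of Sytl3 had a range of −0.071 to 0.11 at 1 W. At 5 W this range was −0.32 to 0.079 for A_51_P461368, −0.22 to 0.27 for A_55_P2156937 and −0.18 to 0.12 for A_66_P105599. The EN change of A_55_P2156937 lay within −0.24 to 0.065 (1 W) and −0.13 to 0.58 (5 W). Serpinb1b changed in AN by 1.91 to 2.73 (3 W) and 1.76 to 3.28 (5 W), and in EN by −2.54 to −1.43 (1 W) and −2.67 to −1.53 (3 W). Cpne4 changed in AN by −0.17 to 1.00 (1 W) and −1.46 to 0.51 (3 W). The brighter Unc13c probe changed in AN by −1.64 to −0.99 (1 W), −1.64 to −1.04 (3 W) and −1.96 to −0.81 (5 W), and in EN by −1.53 to −0.73 (5 W). Between 6 and 21 related genes were called at 1 W, between 5 and 16 at 3 W and between 4 and 18 at 5 W. Without AN replicate 3 of 3 W, 3 of the 5 most similar genes were shared for Cpne4 and 3 for Unc13c.

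With 3 arrays per group and several EN groups below background, the EN falls of Serpinb1b at 1 W and 3 W and of Cpne4 at 3 W and 5 W have a lower bound and no exact size.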
